A study of Oryza sativa Japonica Group with 3 samples.

Results

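In germinating rice seeds, 77 loci exchanged their main transcript isoform between the dry seed and 48 h of imbibition. They were chosen among 1622 eligible loci, those with at least 2 listed isoforms and a summed level of 10 FPKM or more in each of 3 libraries, out of 55986 loci in all. A locus was taken where it had one most abundant isoform at 48 h and another at 0 h, and where both of these changed by at least 50 percentage points of the locus's FPKM. FPKM divides the fragments of a transcript by its length and by the size of the library, so isoforms of unequal length can be added and compared. The seeds were of the japonica landrace Jiucaiqing, kept in distilled water at 30 °C, and sampled dry (0 h), imbibed (24 h) and germinated (48 h). Each time point is 1 poly(A)-enriched library made from 3 combined biological replicates. The spread between replicates is therefore not in the values, no test of any difference was possible, and every count below describes 3 libraries. Read totals are not in the files and the depth behind a value is unknown.

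A plant gene can give several transcripts through alternative splicing, alternative starts or alternative polyadenylation. The resulting isoforms may differ in their untranslated regions, in the protein they encode, or in whether they are removed by nonsense-mediated decay. Dry seeds hold messenger RNAs stored during maturation, and new transcription begins during imbibition, so RNA stored earlier and RNA made anew can both be present. In bulk seed RNA, fewer cells of a type and less RNA per cell cannot be told apart. The files give isoforms as numbers after the locus ID and do not pair the IDs with gene names. Loci are accordingly given by ID, without function, and what distinguishes 1 isoform of a locus from another was not analysed here.

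The rule used the shares at 0 h and 48 h, so their size is a description of the choice. The 77 loci were 4.75% of the eligible loci. The smaller of both changes ranged from 50.3 to 100 points, with a median of 64.6 points. It lay between 50 and 60 points in 26 loci, between 60 and 70 in 25, and at 90 points or more in 8. The isoform that was main at 48 h held a median of 8.12% of its locus at 0 h, 58.9% at 24 h and 85.3% at 48 h. The isoform that was main at 0 h held 85.1%, 38.96% and 7.53%. Most of these loci are simple: 41 list 2 isoforms, 21 list 3, and the most for any is 6. Loci with 2 isoforms made up 53.2% of the 77 and 59.1% of the eligible. In 8 of the 77, isoforms outside the exchanging pair together reached 20% of the locus in some library.

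Just inside the threshold stood LOC_Os09g33986 on chromosome 9 with 50.3 points and LOC_Os07g26610 on chromosome 7 with 50.4 points. Just outside stood LOC_Os03g04430 on chromosome 3 with 49.9 points and LOC_Os09g31482 on chromosome 9 with 49.8 points. These 4 loci hardly differ in their exchange although the rule divides them. In all, 34 loci had unlike main isoforms at 48 h and 0 h with 40 to under 50 points, so the threshold cuts a continuous range. Over all amounts, the main isoform differed between 48 h and 0 h in 236 eligible loci, or 14.5%.

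**Figure D1:**
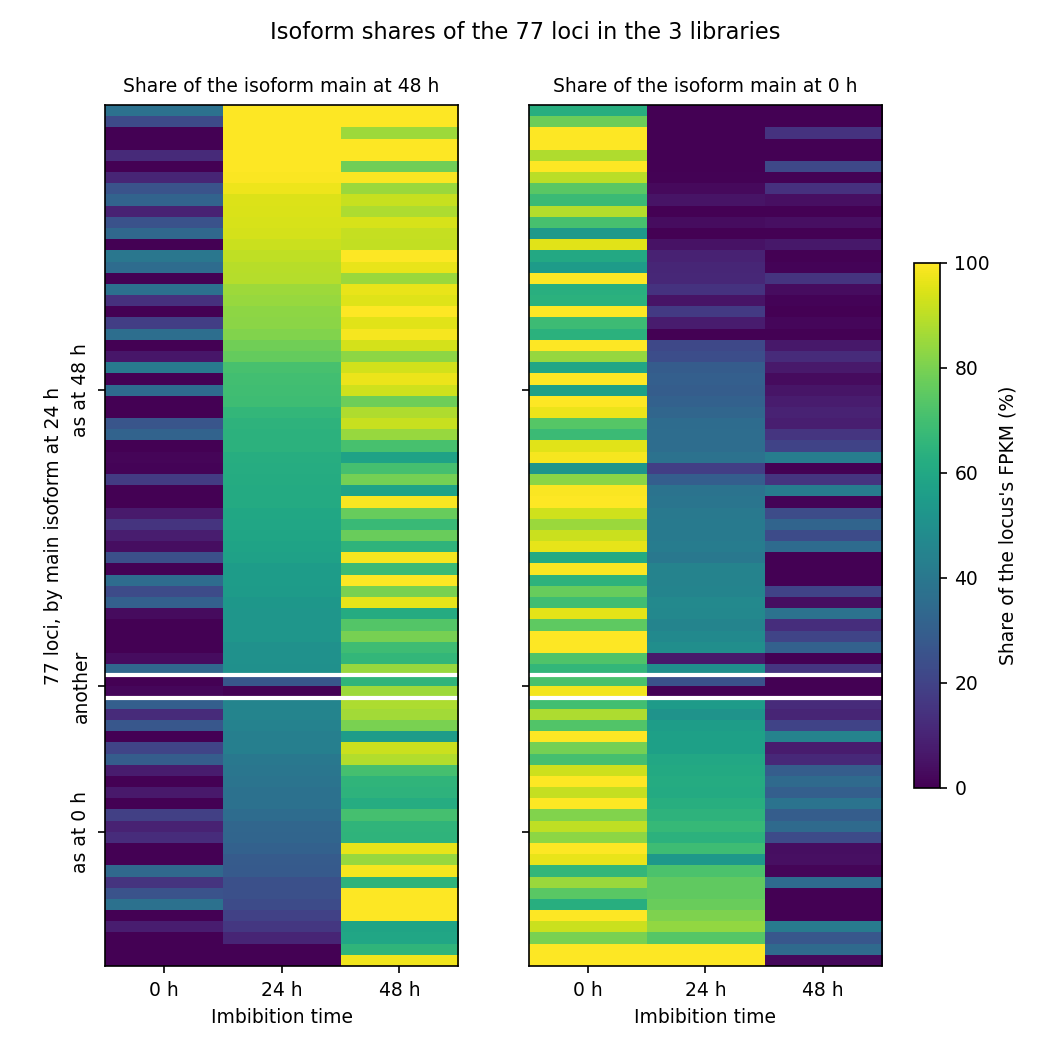
Heat maps of the share of the locus's FPKM, in percent, held by the isoform that was main at 48 h (left) and by the isoform that was main at 0 h (right), with 1 row per locus and 1 column per library. Rows are grouped by the main isoform at 24 h: 51 loci as at 48 h, 2 with another isoform and 24 as at 0 h, and the middle column shows many loci with both isoforms present.

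The 24 h library entered the rule only through the minimum level, so its isoforms are a separate readout of when the exchange took place. In 51 of the 77 loci, or 66.2%, the main isoform at 24 h was already that of 48 h. In 24 loci it was still that of 0 h, and in 2 it was another isoform. The share of the incoming isoform had covered a median of 71.8% of its way by 24 h, with a median step of 47.0 points from 0 h to 24 h and 20.5 points from 24 h to 48 h. The first step was the larger in 52 loci and the second in 25. The loci with exchanges under 50 points, which were outside the 77, had the 48 h isoform as main at 24 h in 88 of 159, or 55.3%. A locus picked for unlike shares at 0 h and 48 h tends to lie between them at 24 h, and the share of the incoming isoform did so in 62 of the 77. It lay above 100% of the way in 11 loci and below 0 in 4, the furthest at 127% and at -23.4%.

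Both isoforms were often present together at 24 h. The main isoform of the 77 loci held a median of 85.1% at 0 h, 66.8% at 24 h and 85.3% at 48 h, against 92.4%, 93.5% and 92.1% over all eligible loci. It held under 60% at 24 h in 23 of the 77, a count not made over the eligible loci. At 90% or more it was found in 34 of the 77 at 0 h, 16 at 24 h and 32 at 48 h. These are 44.2%, 20.8% and 41.6% of the 77, against 55.4%, 57.1% and 54.3% of all eligible loci. The rule favours a high main share at both end points and not at 24 h, so a dip at 24 h is partly built in.

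The same rule over the shorter steps gave fewer loci. Between 24 h and 0 h, 61 eligible loci exchanged main isoform by at least 50 points, or 3.76%, and between 48 h and 24 h, 22 did, or 1.36%. Any difference in main isoform was found in 195 loci, or 12.0%, for 24 h against 0 h and in 145 loci, or 8.94%, for 48 h against 24 h. The 3 comparisons share libraries, so their counts are not independent. Of the 61 loci that exchanged in the first day, the main isoform at 48 h was that of 24 h in 41 and again that of 0 h in 18. Of the 22 that exchanged from 24 h to 48 h, 11 had the main isoform of 0 h again at 48 h. In 10 of the 22 the main isoform had been the same at 0 h and 24 h. In 8 eligible loci, or 0.493%, the main isoform was the same at 0 h and 48 h and another at 24 h, with changes of at least 50 points at both steps. Only 9 loci exchanged by the rule at both steps, and these 8 are among them.

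Values of 0 mark 39 of the 77 loci. An exact 0 in such a file can be a failed estimate of how shared reads divide, and it cannot be told apart from an absent isoform. The incoming isoform was listed at 0 at 0 h in 24 loci and the outgoing isoform at 0 at 48 h in 19, with both in 4. Of the 24 incoming isoforms listed at 0 in the dry seed, 22 were above 0 at 24 h, with a median over the 24 of 10.0 FPKM at 24 h and 14.4 FPKM at 48 h. Of the 19 outgoing isoforms listed at 0 at 48 h, 14 were above 0 at 24 h. The 39 marked loci had a median exchange of 74.6 points and the 38 unmarked loci one of 59.5 points. Their 24 h patterns were alike in count, with the 48 h isoform as main at 24 h in 26 of the 39 and 25 of the 38.

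The marked loci were mostly of low level. Of the 77 loci, 47 had their lowest summed level between 10 and 20 FPKM, and 30 of these carried a value of 0. At 50 FPKM or more in every library there were 9 loci, of which 2 carried one. The share of eligible loci that exchanged was 5.57% (47 of 844) at a lowest level of 10 to 20 FPKM, 4.14% (21 of 507) at 20 to 50 FPKM, 2.65% (4 of 151) at 50 to 100 FPKM and 4.17% (5 of 120) at 100 FPKM or more. Counting only loci with no value of 0, it was 2.01%, 2.76%, 2.65% and 2.50% in the same classes, from 17, 14, 4 and 3 loci. The shares without a 0 were thus close in these classes, though the upper 2 rest on few loci. Exchanges with a 0 were most frequent in the lowest class.

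**Figure D2:**
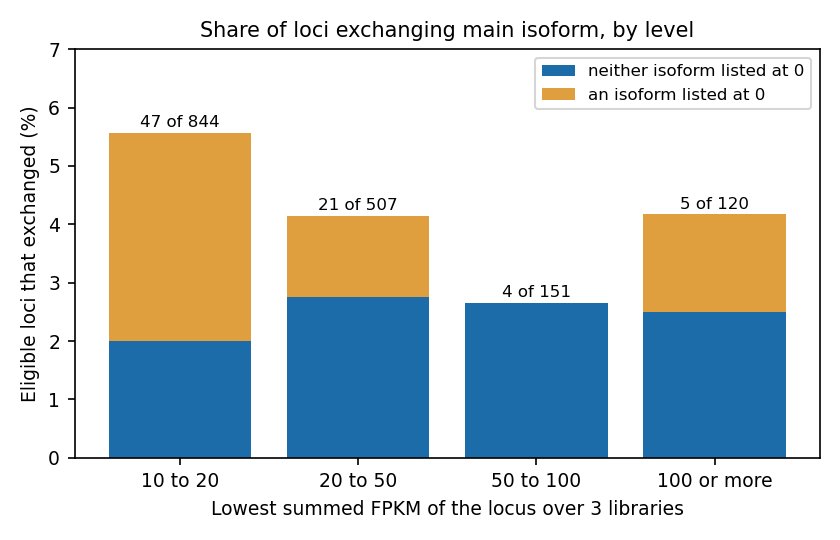
Bars give the percentage of eligible loci that exchanged main isoform between 48 h and 0 h, by the locus's lowest summed FPKM over the 3 libraries, with the numbers of loci above each bar. The lower part (neither isoform listed at 0) stays between 2.01% and 2.76% in the 4 classes, and the upper part (an isoform listed at 0) is tallest at 10 to 20 FPKM.

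Together the 77 loci held 1.18% of the summed FPKM at 0 h, 1.99% at 24 h and 0.876% at 48 h. A single locus of chromosome 2, LOC_Os02g06640, made up 71.3% of their sum in the dry seed. Without it they held 0.338%, 0.712% and 0.628%, and no other of the 77 exceeded 567 FPKM in any library. Median sums of the 77 were 27.3, 28.1 and 20.6 FPKM in the 0, 24 and 48 h libraries, somewhat below the eligible medians of 33.1, 34.9 and 24.96 FPKM.

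LOC_Os02g06640 lists 3 isoforms and had a different main one in each library. Its isoform LOC_Os02g06640.4 measured 5282 FPKM in the dry seed, 1852 FPKM in the imbibed seed and 0 in the germinated seed. In the same order, LOC_Os02g06640.3 measured 2124, 3564 and 458 FPKM, and was the main one at 24 h alone, with 48.2% of the locus. LOC_Os02g06640.1 was listed at 0 in the dry seed and measured 1977 FPKM when imbibed and 869 FPKM when germinated, where it held 65.5%. The locus sum differed little over the first day, with 7393 FPKM at 24 h against 7406 FPKM at 0 h, and was 1326 FPKM after 48 h. All 3 isoforms were thus abundant at 24 h, and both zeros stand at the end points.

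The other 4 loci at 100 FPKM or more in every library have their values given in the order 0, 24 and 48 h. LOC_Os01g08560 on chromosome 1 had exchanged almost in full by 24 h: LOC_Os01g08560.2 measured 164, 0.06 and 0 FPKM. LOC_Os01g08560.1 measured 22.3, 104 and 126 FPKM, and the locus sum was 186, 104 and 126 FPKM. LOC_Os10g30580 on chromosome 10 changed its isoforms at both steps, with a sum of 163, 157 and 129 FPKM. Of its isoforms, LOC_Os10g30580.2 measured 119.6, 55.5 and 10.7 FPKM, and LOC_Os10g30580.1 measured 43.1, 102 and 118 FPKM. The share of LOC_Os10g30580.2 was accordingly 73.5%, 35.3% and 8.29% of the locus. Both isoforms of this locus moved in opposite ways at each step, and neither is listed at 0 in any library.

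LOC_Os04g33110 on chromosome 4 stood at an even division at 24 h. LOC_Os04g33110.1 measured 64.0, 283.5 and 251.5 FPKM, and LOC_Os04g33110.2 measured 126, 283.3 and 46.1 FPKM. Its place among the loci with the 48 h isoform at 24 h therefore rests on a difference of well under 1 FPKM. In LOC_Os01g34480 on chromosome 1 the outgoing isoform remained abundant. LOC_Os01g34480.1 measured 137, 214 and 108 FPKM, while LOC_Os01g34480.3 measured 3.92, 241 and 175 FPKM. The incoming isoform was thus present beside the outgoing one at 24 h and 48 h, and the sum was 143, 458 and 285 FPKM.

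**Figure D3:**
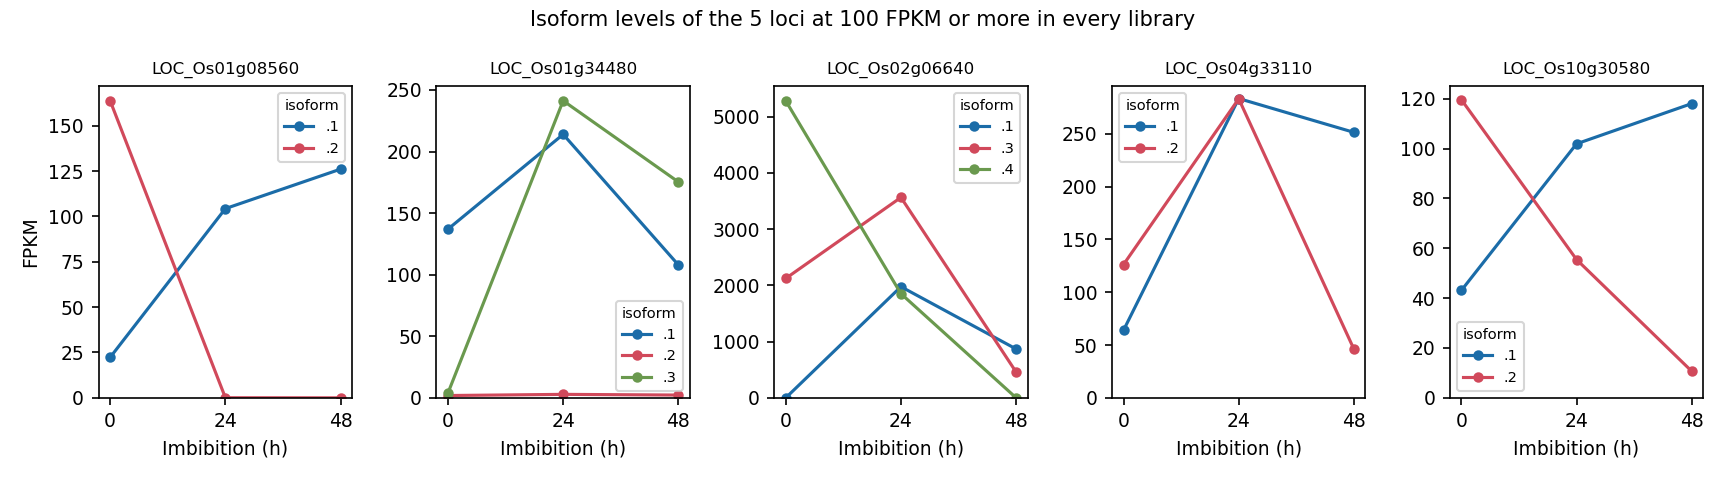
FPKM of each isoform against hours of imbibition, 1 point per library, for the 5 exchanging loci at 100 FPKM or more in every library, each with its own axis from 0. LOC_Os01g08560 crosses before 24 h, LOC_Os02g06640 has its isoform 3 highest at 24 h, and in LOC_Os01g34480 isoforms 1 and 3 are both above 100 FPKM at 24 h and 48 h.

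Among loci with neither isoform at 0 in any library, the 10 largest exchanges ran from 65.9 to 89.1 points. With 5 FPKM added to each isoform, 8 of these 10 fell below 50 points, the lowest being LOC_Os03g16130 at 27.8 points. The addition goes to every listed isoform, so it lowers loci with more isoforms further, and LOC_Os03g16130 lists 6. The largest was that of LOC_Os07g49400 on chromosome 7, where LOC_Os07g49400.3 measured 59.6, 0.41 and 1.00 FPKM in the order 0, 24 and 48 h. LOC_Os07g49400.1 measured 6.82, 69.4 and 202 FPKM. The shares at 24 h were already those of 48 h, while the locus sum was 66.4, 69.8 and 203 FPKM, so that the sum was higher only at 48 h. LOC_Os01g47540 on chromosome 1 followed with 87.7 points: LOC_Os01g47540.1 measured 42.6, 25.5 and 1.43 FPKM, and LOC_Os01g47540.2 measured 0.01, 51.4 and 13.2 FPKM. In the dry seed its incoming isoform was at the smallest value that 2 decimals can show.

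In 3 more of these 10 loci the shares at 24 h were already close to those of 48 h. LOC_Os10g39780.1 on chromosome 10 held 25.3% at 0 h, 93.8% at 24 h and 93.9% at 48 h of its locus, LOC_Os08g01360.1 on chromosome 8 held 18.6%, 82.7% and 95.5%, and LOC_Os03g16130.1 on chromosome 3 held 6.24%, 76.3% and 83.2%. A later course was seen in LOC_Os05g24601 on chromosome 5, where LOC_Os05g24601.1 held 20.4%, 43.0% and 91.9%. LOC_Os03g51000.2 on chromosome 3 held 12.4%, 44.9% and 86.3%, and LOC_Os06g40050.1 on chromosome 6 held 30.5%, 53.0% and 96.5%. In these the second step was the larger. LOC_Os08g36994.1 on chromosome 8, with 7.10%, 59.7% and 76.9%, and LOC_Os10g42610.2 on chromosome 10, with 7.90%, 58.9% and 77.1%, moved mainly in the first step.

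The 5 largest exchanges with a value of 0 were near complete, from 97.8 to 100 points, and the highest sum among them was 31.0 FPKM. LOC_Os03g31290 on chromosome 3 was listed with LOC_Os03g31290.2 alone at 0 h, at 15.4 FPKM, and with LOC_Os03g31290.1 alone at 24 h and 48 h, at 13.3 and 11.1 FPKM. LOC_Os02g11840 on chromosome 2 passed through a mixture, with LOC_Os02g11840.1 at 0, 25.5 and 31.0 FPKM and LOC_Os02g11840.2 at 17.9, 5.22 and 0 FPKM in the order of the libraries. LOC_Os06g38940 on chromosome 6 did likewise, with LOC_Os06g38940.1 holding 0, 61.0% and 99.2% of its locus. The exchanges of the remaining 2 came after 24 h. LOC_Os07g34030.2 on chromosome 7 held 100% at 0 h, 100% at 24 h and 2.23% at 48 h, and LOC_Os06g05800.1 on chromosome 6 held 100%, 80.5% and 0.

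Among the 24 loci that kept the dry-seed isoform as main at 24 h, the most abundant were LOC_Os06g13810, LOC_Os09g33986 and LOC_Os06g05010. LOC_Os06g13810 on chromosome 6 had a sum of 54.1, 282 and 188 FPKM in the 0, 24 and 48 h libraries. Its LOC_Os06g13810.3 measured 39.4, 157 and 37.8 FPKM and its LOC_Os06g13810.1 measured 14.7, 125 and 150.2 FPKM. Both isoforms were thus higher at 24 h than at 0 h, and their proportion shifted as well. LOC_Os06g05010.1 on chromosome 6 measured 32.0, 65.5 and 33.2 FPKM, and LOC_Os06g05010.2 measured 2.57, 42.0 and 79.6 FPKM. LOC_Os09g33986.2 measured 80.9, 105 and 40.4 FPKM, and LOC_Os09g33986.1 measured 14.2, 33.9 and 75.5 FPKM. In all 3 the outgoing isoform was highest at 24 h. The second locus with another isoform at 24 h, beside LOC_Os02g06640, was LOC_Os06g42560 on chromosome 6. Its LOC_Os06g42560.2 was at 10.95 FPKM at 0 h, LOC_Os06g42560.1 at 7.86 FPKM at 24 h and LOC_Os06g42560.3 at 10.4 FPKM at 48 h, each of them at 0.20 FPKM or less in the other libraries.

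More of the 77 loci exchanged towards isoform 1 than away from it, in a numbering that the rule did not use. The counts by isoform number were added after the values were seen. The number is that of the annotation, and how isoform 1 differs from the others of its locus is not in the files. Isoform 1 was the main one of the 77 loci in 18 at 0 h, 34 at 24 h and 48 at 48 h, or 23.4%, 44.2% and 62.3%. Among the other 1545 eligible loci it was the main one in 54.7% at 0 h, 54.7% at 24 h and 56.9% at 48 h. Since the rule needs unlike main isoforms at 48 h and 0 h, isoform 1 can be main at only 1 of these time points in any of the 77 loci, so their shares are not to be read against those of the other loci. By locus, 48 exchanged towards isoform 1, or 2.96% of the eligible, 18 away from it, or 1.11%, and 11 between other isoforms, or 0.678%. Of the 41 loci with 2 isoforms, 29 went towards isoform 1 and 12 away from it.

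Of the exchanging loci, 38 had no 0, with 25 towards isoform 1 and 9 away from it. At 50 FPKM or more in every library there were 9, out of 271 eligible loci at that level. Of these 9, 8 went towards isoform 1 and 1, LOC_Os01g34480, away from it. Both sets are part of the loci already counted by direction, so they are no independent support for it. The 159 loci with exchanges under 50 points are other loci, with 78 towards isoform 1, 44 away and 37 neither. No share of the eligible loci by direction was taken for these 3 sets. By step, the direction was even over the first day, with 27 loci towards isoform 1, or 1.66% of the eligible, and 23 away, or 1.42%. From 24 h to 48 h it was 14 loci towards, or 0.863%, and 6 away, or 0.370%. Of the 18 loci that left isoform 1, 14 had done so by 24 h, and of the 48 that arrived at isoform 1, 29 had it as main at 24 h.

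**Figure D4:**
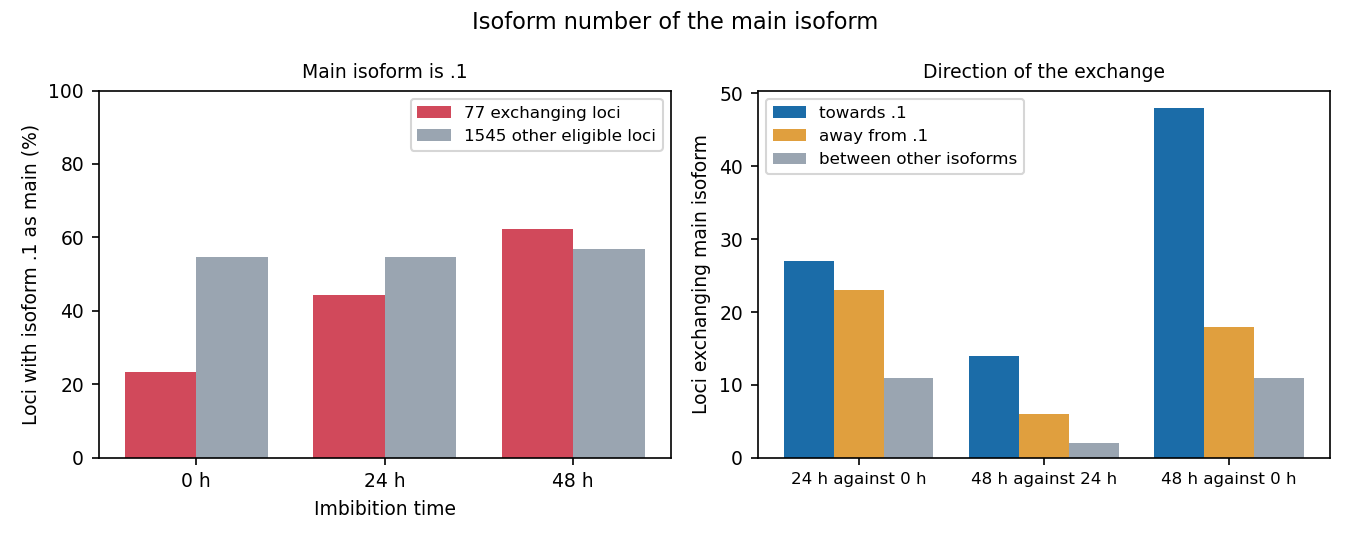
Left, percentage of loci whose main isoform is number 1 in each library, for the 77 exchanging loci and the 1545 other eligible loci. The rule shapes the bars of the 77 loci, so they are not to be read against those of the other loci. Right, number of eligible loci exchanging main isoform by at least 50 points in each pair of libraries, by direction; 48 of 77 went towards isoform 1 for 48 h against 0 h, and 27 of 61 for 24 h against 0 h.

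The levels of both isoforms, and not their shares alone, differed by 2-fold or more in most of the 77 loci. On log2(FPKM + 1), which understates changes of low values, the incoming isoform was at least 2-fold higher at 48 h than at 0 h and the outgoing at least 2-fold lower in 58 loci. This count was 56 with the libraries at an equal total and 48 with a pseudocount of 5 FPKM. In 10 loci the incoming isoform alone passed 2-fold and in 9 the outgoing alone. The outgoing isoform was higher in FPKM at 48 h than at 0 h in 2 loci, among them LOC_Os06g05010, and the incoming isoform was lower at 48 h in 4. All of this comes from the contrast that chose the loci.

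The summed level of the locus often changed little. It was within 2-fold between 48 h and 0 h in 50 of the 77 loci, or 64.9%, against 61.6% of the eligible. It was at least 2-fold higher at 48 h in 11 loci, or 14.3%, against 12.1%, and at least 2-fold lower in 16, or 20.8%, against 26.3%. These shares are near the background, and nothing particular to the exchanging loci is read from them. In 43 loci both isoforms passed 2-fold in opposite directions while the sum stayed within 2-fold, as in LOC_Os10g30580. The rule chose loci for opposite share changes between these same libraries, so this count is largely built in. After scaling all 3 libraries to an equal total, 24 of the 77 were higher and 6 lower, and of the eligible loci 28.2% were higher and 13.1% lower. With median-of-ratios factors the 77 had 12 higher and 14 lower, and the 1622 eligible loci had 216 higher and 405 lower. The counts of higher and lower sums thus depend on how the libraries are scaled. Shares within a locus do not, since all its isoforms are multiplied alike.

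**Figure D5:**
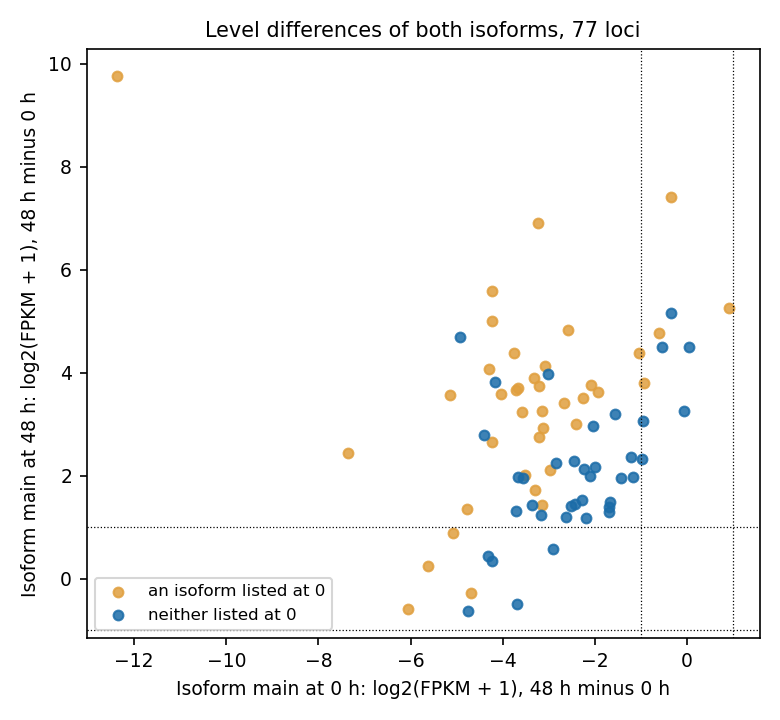
Difference in log2(FPKM + 1) between 48 h and 0 h of the isoform main at 48 h (vertical) against that of the isoform main at 0 h (horizontal), 1 point per locus, with dotted lines at 2-fold. In 58 of the 77 loci the incoming isoform is at least 2-fold higher and the outgoing at least 2-fold lower; loci with an isoform listed at 0 are coloured apart.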

How the data were processed

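RNA from rice seeds at 0, 24 and 48 h of imbibition was sequenced, 1 library per time point, each combining 3 biological replicates per the series design text. The authors deposited FPKM values per isoform, to 2 decimals, and per the file headers these come from results of single isoforms. The submitters' processing notes list FastQC, edgeR 2.3.52 and RSEM 1.1.11 but no role for any of them. Build, annotation release and scaling between libraries: not given in the sources used here. If RSEM made the values, reads that fit several isoforms were divided by probability, which makes isoform shares less certain than locus sums.

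The deposited values were added up over the isoforms of each locus ID, and shares were taken within each locus. No test was run, since no library has a replicate. Ties went to the lower isoform number. The members and lists were chosen with earlier results of these data known. Printed loci were those at 100 FPKM or more in every library, the largest exchanges with and without a value of 0, the most abundant of each 24 h pattern, and those nearest to the 50-point threshold. No member matched among the 39387 genes of the reference table, so the planned splicing-machinery list gave no value. The counting code was tested on simulated exchanges of known size, which says nothing of false calls in the data. The commonest ratio between low values of single-isoform loci was 1.09 between 24 h and 0 h, 0.966 between 48 h and 24 h, and 0.853 between 48 h and 0 h (later over earlier), whereas the product of both steps was 1.06. The depth of the libraries is therefore treated as unknown. Alternatives covered the minimum level, the points, values of 0, added FPKM and scaling. Python 3.11.15, numpy 2.4.6, pandas 2.3.3 and matplotlib 3.10.9 were used.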

Additional observations from a re-analysis of the deposited data

How the results depend on the processing

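Leaving out a replicate gave no value, as each time point has 1 library. No paired analysis was possible because the 3 pooled libraries have no replicates to pair. Counts follow in 1 order: loci exchanging for 48 h against 0 h, 24 h against 0 h and 48 h against 24 h; then, of the first, those with the 48 h isoform and with the 0 h isoform at 24 h, and those going towards and away from isoform 1. As reported they were 77, 61, 22, 51, 24, 48 and 18. A minimum of 5 FPKM gave 176, 143, 74, 102, 70, 110 and 42; of 20 FPKM 30, 20, 7, 18, 11, 17 and 8; and no minimum 765, 668, 447, 424, 304, 439 and 223. A minimum of 50 FPKM, chosen after seeing the data, gave 9, 6, 2, 5, 3, 8 and 1. A threshold of 30 points gave 160, 125, 62, 98, 58, 96 and 37, and of 70 points 26, 18, 11, 18, 7, 17 and 5. Without loci listed at 0 the counts were 38, 26, 7, 25, 13, 25 and 9, and with 5 FPKM added to each isoform 18, 15, 9, 11, 6, 13 and 5. These settings change how many loci can pass, by construction. With 1 FPKM added, 62 loci exchanged for 48 h against 0 h, and with the same sum per library 77; all 7 counts stayed within 1.5 times under both. In each setting more of the loci had the 48 h isoform than the 0 h isoform at 24 h, and more went towards isoform 1 than away; the settings share loci, so this is no independent support. The counts by isoform number were added after seeing the data. Summed levels rescaled to the same sum were higher at 48 h in 24 loci and lower in 6; the other 3 alternatives stayed within 1.5 times. Loci with both isoforms past 2-fold numbered 48 to 61 over the same 4 alternatives, added for them after seeing the data, and 36 to 46 with the sum within 2-fold. Adding 5 FPKM took 13 of the printed loci under 50 points, from LOC_Os03g16130 at 27.8, LOC_Os10g39780 at 29.0, LOC_Os07g26610 at 29.5 and LOC_Os06g42560 at 31.1 to LOC_Os04g33110 at 48.9 points, and adding 1 FPKM took LOC_Os07g26610 to 44.2 and LOC_Os09g33986 to 49.3 points. Added FPKM lowers the points more in loci of low level and in those that list more isoforms. The counting error of low isoform values is unknown, since the files hold no read totals.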

Other observations

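Some loci exchanged main isoform at 24 h and then returned. In 8 eligible loci, or 0.493%, the main isoform was the same at 0 h and 48 h and another at 24 h, with both isoforms changing by at least 50 points at both steps. Of the 9 loci that exchanged by the rule at both steps, 8 thus returned. A locus with 2 isoforms that exchanges at both steps can only return to its first main isoform, so this count is partly built in. The 8 loci were noticed after the values were seen, and 6 of the 8 have an isoform listed at 0 in some library. In LOC_Os06g02540 on chromosome 6, LOC_Os06g02540.1 measured 69.2, 0 and 54.3 FPKM in the 0, 24 and 48 h libraries, and LOC_Os06g02540.2 measured 0.83, 51.7 and 0.15 FPKM. In LOC_Os05g01090 on chromosome 5, which has no value of 0 in either isoform, LOC_Os05g01090.2 measured 25.3, 8.02 and 14.9 FPKM, and LOC_Os05g01090.3 measured 0.23, 13.5 and 1.08 FPKM. Of the 8 loci, 5 had isoform 1 as main at 0 h and 48 h and 2 had it at 24 h. For LOC_Os01g01410, counted among the 5, the return rests on 7.70 FPKM for isoform 1 against 7.63 FPKM for isoform 2 at 48 h.

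By the chromosomes that their IDs state, the 77 loci made up unlike shares of the eligible loci, against 4.75% over all. This is a description of small counts without a test. Chromosome 10 held 10 of its 79 eligible loci, or 12.7%, and chromosome 6 held 10 of 123, or 8.13%. Chromosome 9 held 1 of 86 and chromosome 12 held 0 of 63. The remaining chromosomes lay between 2.54% and 6.54%. The ID numbers of next loci in order differed by 200 or less in 6 pairs, the closest being LOC_Os10g32710 and LOC_Os10g32730, whose IDs differ by 20. The spacing of all eligible loci is not given here, so no clustering is read from these pairs. The incoming isoforms of the closest pair took different courses. LOC_Os10g32710.2 held 0 at 0 h, 89.0% at 24 h and 84.9% at 48 h, and LOC_Os10g32730.1 held 29.4%, 40.1% and 88.5%.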
